A study of Mus musculus with 42 samples.

Results

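Gene expression in mouse embryonic stem cells (ESCs) that had not yet been induced to differentiate was compared with expression about a day later. The earlier group was the 2 libraries of 0 h, and the later group was the 4 libraries of 24 h and 30 h, used as 1 group, so that 6 of the 42 libraries of the time course entered the comparison. All 14296 genes of the files were tested. The groups came from the sampling times in the labels, and no expression value was used to choose them.

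The cells were of the W9.5 line, an established mouse ESC line of strain background 129X1/SvJ, with no transgene or other allele named. Differentiation was spontaneous, into embryoid bodies after withdrawal of LIF, and each time point was harvested from the biological duplicates A and B. Every library came from the same line, and each embryoid body culture is a mixture of cells. Undifferentiated cells kept for 24 or 30 h were not analysed here, so that the induction of differentiation, the change of culture form and the time in culture cannot be told apart. As these are bulk libraries, fewer cells of a type and less RNA per cell cannot be told apart either.

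Pluripotency is held by a core of transcription factors, among them Pou5f1, Sox2 and Nanog. In ESCs kept with LIF, a cytokine that acts through the receptors Lifr and Il6st, the Jak kinases and Stat3, further factors such as Klf4, Esrrb, Tbx3 and Tfcp2l1 maintain the naive state, which resembles the epiblast before implantation. When LIF is withdrawn, ESCs pass through a formative state that resembles the epiblast just after implantation, known for Fgf5, Otx2, Pou3f1 and the de novo DNA methyltransferases, before germ layer genes are used.

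Between 10120972 and 36793895 reads were counted on these genes in the 6 libraries, and the shallowest was 30 h of replicate B. A level of 3 reads was worth 0.0837 to 0.316 CPM (counted reads scaled to a common library size), depending on the library. Levels are log2 CPM, and differences are on the same log2 scale, so that a difference of 1 is a 2-fold change. The median SD between duplicates was 0.083 at 0 h, 0.073 at 24 h and 0.114 at 30 h. Markers of ESCs were abundant in the 0 h libraries, with 9.88 and 10.08 log2 CPM for Pou5f1 in replicates A and B.

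A total of 4498 genes (31.5% of those tested) differed between 0 h and 24–30 h at an adjusted p below 0.0001. Of these, 2005 were higher (14% of all genes tested) and 2493 were lower (17.4%) at 24–30 h. The change was at least 2-fold for 945 of the higher and 1694 of the lower genes, and over 16-fold for 43 and 42. The median change over all genes was −0.04, and the median SE of a change was 0.15. All 4498 genes changed in the same direction in replicates A and B. They were called from these same libraries, so that this is no separate support. The 2 libraries of 0 h did not overlap with the 4 later ones in 10884 genes (76.1% of all), so that a lack of overlap is common in these data. The split between higher and lower genes depended on the scaling: 44.6% of the changed genes were higher on the deposited scale and 58.9% (2767 higher and 1930 lower) after each library was centred on its median, which moved the median gene by 0.15 towards higher values. With replicate A of 0 h left out the number of changed genes was 2694, and with replicate B of 0 h left out it was 2615.

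**Figure D1:**
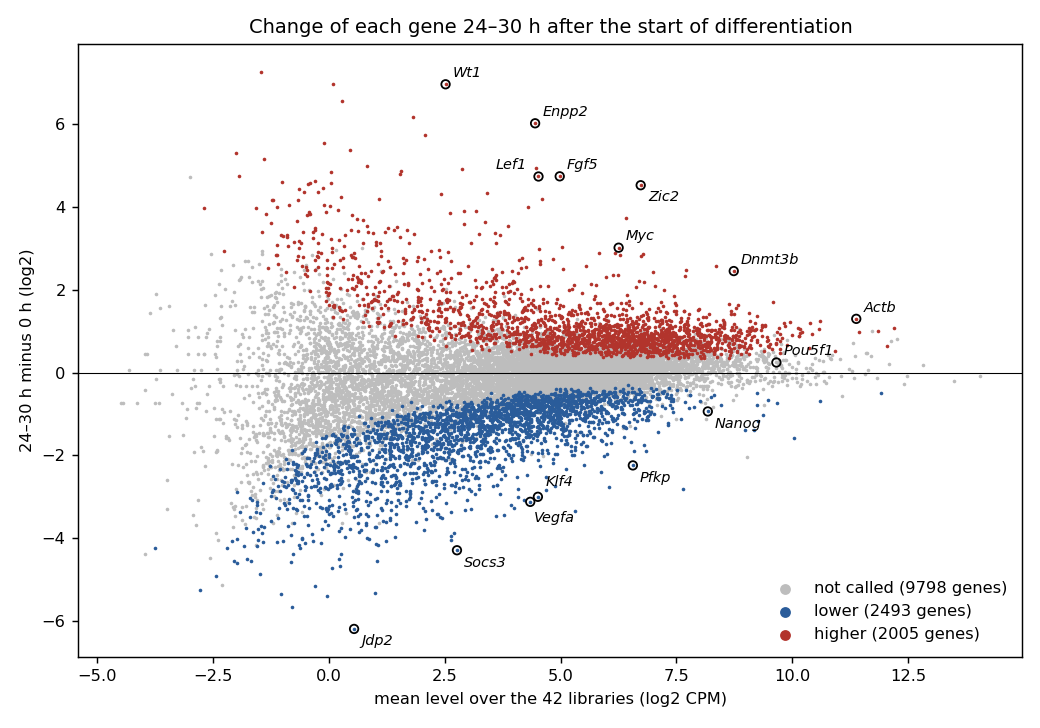
Change of each of the 14296 genes at 24–30 h against 0 h (log2, vertical axis) by its mean level over the 42 libraries (log2 CPM, horizontal axis). Each point is a gene, the 2005 higher genes are red, the 2493 lower genes are blue and the rest are grey, and circled genes are named in the text.

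Among the higher genes, the change had its smallest adjusted p for Efnb2, Enpp2, Zic2, Gja1 and Fgf5, and among the lower genes for Emp2, Pfkp, Gas6, Fignl2 and a gene that is listed by its identifier alone. Efnb2, a ligand of Eph receptors, was at 2.88 log2 CPM in both libraries of 0 h, at 6.39 in both of 24 h, and at 6.92 and 6.78 in those of 30 h. It rose by 3.74 ± 0.10 (SE, adjusted p = 1.97e-21), 13.3-fold, and its 0 h level lay far below each later library. Emp2, a membrane protein of epithelial cells, was at 5.47 and 5.62 at 0 h, 2.0 and 2.07 in the 24 h libraries and 1.03 and 0.88 in the 30 h libraries. Emp2 fell by 4.05 (log2, SE 0.12, adjusted p = 1.76e-19), and both libraries of 30 h were below both of 24 h.

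The de novo methyltransferases, the naive factor Klf4, the epiblast ligand Fgf5 and the angiogenic ligand Vegfa stand for the 4 groups of genes that are described next. The start of each gene is shown as RefSeq gives it on GRCm38.p6, from 250 bases before to 50 bases after the annotated start, on the strand of the gene. Capitals mark the only match among these windows to any of 7 motifs searched, an E-box in the window of Klf4.
Fgf5, chr5:98253934-98254233, plus strand: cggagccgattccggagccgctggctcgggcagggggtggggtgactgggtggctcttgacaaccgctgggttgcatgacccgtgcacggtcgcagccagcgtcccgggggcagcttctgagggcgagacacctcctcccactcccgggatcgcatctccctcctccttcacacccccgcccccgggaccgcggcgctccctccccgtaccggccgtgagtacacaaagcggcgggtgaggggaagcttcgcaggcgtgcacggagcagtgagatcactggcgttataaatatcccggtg
Dnmt3b, chr2:153649199-153649498, plus strand: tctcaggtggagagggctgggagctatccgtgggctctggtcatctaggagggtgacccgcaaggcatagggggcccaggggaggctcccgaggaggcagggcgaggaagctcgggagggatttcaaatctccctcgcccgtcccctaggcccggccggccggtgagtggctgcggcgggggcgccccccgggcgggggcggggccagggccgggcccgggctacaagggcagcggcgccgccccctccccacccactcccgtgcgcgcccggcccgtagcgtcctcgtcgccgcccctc
Klf4, chr4:55532426-55532725, minus strand: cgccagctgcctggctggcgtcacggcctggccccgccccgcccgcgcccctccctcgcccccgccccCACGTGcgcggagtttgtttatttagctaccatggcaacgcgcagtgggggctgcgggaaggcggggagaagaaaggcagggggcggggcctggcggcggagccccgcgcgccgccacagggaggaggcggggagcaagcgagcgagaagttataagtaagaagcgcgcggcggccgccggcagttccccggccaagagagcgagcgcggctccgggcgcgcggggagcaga
Vegfa, chr17:46032328-46032627, minus strand: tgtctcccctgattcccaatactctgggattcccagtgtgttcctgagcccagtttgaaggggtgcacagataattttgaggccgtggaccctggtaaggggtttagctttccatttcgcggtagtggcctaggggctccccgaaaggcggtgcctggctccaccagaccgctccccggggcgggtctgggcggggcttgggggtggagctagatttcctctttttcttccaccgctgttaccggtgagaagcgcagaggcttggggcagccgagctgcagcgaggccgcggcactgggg
These windows were GC-rich, at 68.3% for Fgf5, 76.0% for Dnmt3b, 74.3% for Klf4 and 62.0% for Vegfa.

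The motifs were searched on both strands in the windows of the 10686 genes that RefSeq matched by symbol, where a gene with several starts counted as holding a motif if any window did. The E-box CACGTG was in the windows of 14.6% of higher genes, 11.2% of lower genes and 11.8% of all genes. The AP-1 motif TGANTCA was in 4.60%, 6.96% and 5.76% of the same groups. The octamer motif ATGCAAAT was in 2.24%, 1.79% and 1.68%, the STAT motif TTCCNGGAA in 1.64%, 1.48% and 1.5%, and the TCF motif CTTTGAT in 3.16%, 2.90% and 2.92%. The cyclic AMP element TGACGTCA was in 3.35%, 2.85% and 3.58%, and the Esrrb motif TCAAGGTCA in 0.197%, 0.316% and 0.299%. No motif lies inside another. These shares describe the letters of the windows alone.

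Naive pluripotency genes were lower on balance at 24–30 h. Of 16 such genes, 7 fell, 2 rose and 7 did not pass the test, with a median change of −1.03 against −0.04 over all genes, where 17.4% of genes were lower and 14% higher. Klf4 was at 8.40 and 8.46 log2 CPM at 0 h, 5.65 and 5.71 in the 24 h libraries and 5.18 and 5.16 in the 30 h libraries, so that every later library was below both 0 h libraries. Klf4 fell 8.01-fold (−3.00 ± 0.18 log2, SE, adjusted p = 1.77e-13). Tcl1, a coactivator of the kinase Akt, was at 7.01 and 6.99 at 0 h and between 4.14 and 4.78 in the 4 later libraries, a fall of 2.50 (log2, SE 0.24). The adhesion molecule Pecam1 (−1.65 ± 0.13, SE), the T-box factor Tbx3 (−1.53 ± 0.24), Prdm14, a repressor of the methyltransferase genes (−1.43 ± 0.20), and Tfcp2l1 (−1.17 ± 0.17) fell as well. Nanog was at 8.79 and 8.98 at 0 h, 8.17 and 8.13 in the 24 h libraries and 7.78 and 7.71 in the 30 h libraries. Its fall of 0.94 (SE 0.11, adjusted p = 1.99e-08) was under 2-fold.

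The genes of the list did not move as a block. The homeobox gene Gbx2 was at 5.54 and 5.65 at 0 h and between 6.97 and 7.28 later, a rise of 1.48 ± 0.26 (SE, adjusted p = 1.84e-05), and the nuclear receptor gene Nr0b1 rose by 1.33 ± 0.21. Klf2 (−1.22 ± 0.28), Dppa3 (−1.13 ± 0.33), Esrrb (−0.74 ± 0.19), Zfp42 (−0.41 ± 0.15) and Klf5 (−0.35 ± 0.25) had lower means but did not pass the threshold, nor did Nr5a2 (−0.17 ± 0.19) or Fgf4 (0.17 ± 0.09). With replicate A of 0 h left out, 5 genes of the list were lower and 0 higher, and with replicate B of 0 h left out 6 were lower and 0 higher.

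**Figure D2:**
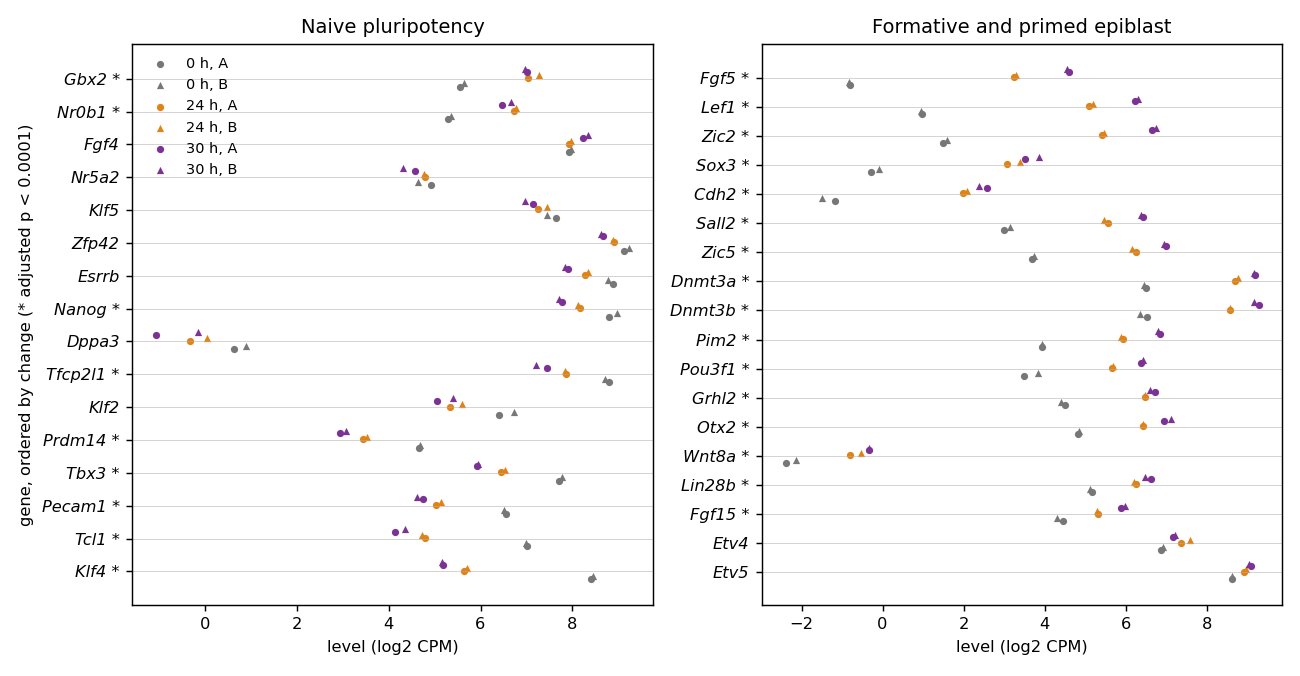
Level (log2 CPM, horizontal axis) of the 16 naive genes (left) and the 18 formative and primed genes (right) in each of the 6 libraries, with circles for replicate A, triangles for replicate B and colours for the time. Asterisks mark genes with adjusted p below 0.0001, and the 0 h points of Fgf5, Lef1 and Zic2 lie furthest to the left of their later points.

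The naive genes took different courses over the first 6 h. Between 6 h and 0 h, a contrast in which 26.3% of all genes differed, 4 of the 16 were higher, Nr5a2 (by 2.21, adjusted p = 4.14e-09), Nr0b1, Gbx2 and Zfp42, and 2 were lower, Klf4 and Pecam1. The mean of Nanog in log2 CPM was 8.88 (0 h), 9.45 (6 h), 7.95 (24–30 h) and 7.0 (48 h). Prdm14 had a mean of 5.78 at 6 h and Tbx3 of 8.16, against 4.68 and 7.74 at 0 h, but none of Nanog (adjusted p = 0.000301), Prdm14 (0.000149) and Tbx3 (0.2) passed the threshold between 6 h and 0 h. Klf4 went the other way, with 7.11 at 6 h against 8.43 at 0 h. Tested against 6 h in place of 0 h, where 17.6% of all genes differed, Nanog (−1.50), Prdm14 (−2.54), Tbx3 (−1.95), Esrrb (−1.34), Zfp42 (−1.30) and Nr5a2 (−2.38) were all lower at 24–30 h, with adjusted p values from 2.7e-11 for Prdm14 and 4.3e-12 for Nanog to 1.3e-06 for Esrrb. Esrrb, Zfp42 and Nr5a2 thus differed from 6 h though not from 0 h at this threshold. So did Klf5 (−1.79, adjusted p = 1.48e-06) and Klf2 (−1.59, 3.84e-05), which were lower than at 6 h, and Fgf4 (0.63, 1.26e-06), which was higher.

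Genes of general pluripotency were mostly kept or higher. Of 15, 7 rose (46.7%, against 14% of all genes), 1 fell (6.67%, against 17.4%) and 7 did not pass the test. The median change was 0.84. Pou5f1 was at 9.88 and 10.08 at 0 h and between 10.13 and 10.33 later, a difference of 0.25 ± 0.15 (SE) that did not pass the test (adjusted p = 0.162). Sox2 was at 9.34 and 9.43 at 0 h and between 8.80 and 8.89 later, a fall of 0.54 (SE 0.09, adjusted p = 9.38e-06), which was no longer called after median centring. Rif1, which acts in replication timing and telomere upkeep, rose by 1.49 ± 0.20, the zinc finger gene Zfp281 by 1.48 ± 0.15, Dppa2 by 1.40 ± 0.26, the RNA-binding L1td1 by 1.20 ± 0.21, Zscan10 by 0.95 ± 0.14, and Lin28a, an inhibitor of let-7 processing, by 0.86 ± 0.09. Foxd3 (1.40 ± 0.31), Utf1 (0.73 ± 0.20), Dppa4 (0.51 ± 0.13), Sall4 (0.37 ± 0.10) and Dppa5a (−0.79 ± 0.21) did not pass. In a fit on the 6 libraries alone 10 genes of the list were higher and 2 lower, and after quantile normalization 5 were higher and 2 lower. Without replicate A of 0 h 5 genes of the list were higher and without replicate B of 0 h 3 were, with 0 lower in each case.

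Formative and primed epiblast genes rose almost without exception. Of 18, 16 were higher (88.9%, against 14% of all genes), 0 were lower and 2 did not pass, with a median change of 2.44. Fgf5 was at −0.81 and −0.84 log2 CPM at 0 h, which was 13 reads in each library, 3.23 and 3.29 in the 24 h libraries and 4.61 and 4.56 in the 30 h libraries. It rose 26.8-fold (4.75 ± 0.15 log2, SE, adjusted p = 4.13e-19), and its 4 later libraries were far above both of 0 h. Zic2, a zinc finger factor, was at 1.49 and 1.59 at 0 h, 5.42 and 5.47 in the 24 h libraries and 6.66 and 6.75 in the 30 h libraries. The rise of Zic2 was 23.1-fold (4.53 ± 0.11, adjusted p = 1.97e-21). Lef1, a nuclear partner of beta-catenin, was at 0.98 and 0.95 at 0 h and between 5.11 and 6.30 later, 26.8-fold higher (4.74 ± 0.25). The SoxB1 gene Sox3 (3.65 ± 0.21), N-cadherin Cdh2 (3.60 ± 0.29), Sall2 (2.89 ± 0.18), Zic5 (2.88 ± 0.13), the kinase gene Pim2 (2.43 ± 0.11), the POU factor gene Pou3f1 (2.36 ± 0.16), Grhl2, an activator of epithelial genes (2.13 ± 0.09), and the homeobox gene Otx2 (1.89 ± 0.15) followed. Wnt8a (1.76 ± 0.27), Lin28b (1.25 ± 0.12) and Fgf15 (1.24 ± 0.18) rose less. The ERK-responsive genes Etv4 (0.44 ± 0.32) and Etv5 (0.37 ± 0.12) did not pass the test.

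At 6 h the formative genes were called in both directions against 0 h. In that contrast 11.8% of all genes were higher and 14.5% lower. The 6 h mean was above the 0 h mean in 10 of the 18 genes, and 3 of them passed the test as higher, Cdh2 (by 3.73 on the log2 scale, adjusted p = 5.29e-10), Zic2 (2.54, 1.39e-14) and Grhl2 (0.605, 8.69e-06). Sox3 (1.20, adjusted p = 0.000147) and Zic5 (0.63, 0.000561) had higher means at 6 h and did not pass. Lower at 6 h than at 0 h were 4 genes, Fgf15 (−1.78), Sall2 (−1.59), Fgf5 (−1.305) and Dnmt3a (−0.95). Against 6 h, the change of Cdh2 at 24–30 h was −0.13 (adjusted p = 0.74), while that of Fgf5 was 6.05 (adjusted p = 1.1e-21). Leaving out either library of 0 h left 15 genes of the list higher.

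Genes of DNA methylation rose with them. Of 9 genes, 5 were higher (55.6%, against 14% of all genes), 0 were lower and 4 did not pass, with a median change of 0.76. The de novo methyltransferase gene Dnmt3a was at 6.51 and 6.46 at 0 h, 8.70 and 8.78 in the 24 h libraries and 9.18 and 9.16 in the 30 h libraries, a rise of 2.47 ± 0.08 (SE, adjusted p = 9.11e-19) or 5.54-fold. Dnmt3b was at 6.52 and 6.37 at 0 h, at 8.57 in both libraries of 24 h, and at 9.29 and 9.17 at 30 h, 5.49-fold higher (2.46 ± 0.10, adjusted p = 3.55e-17). The 2 genes thus rose by like amounts, and both are also counted in the formative list. The cofactor Dnmt3l rose by 1.04 ± 0.13, the glycosylase Tdg by 0.76 ± 0.14, and Uhrf1, which guides maintenance methylation, by 0.56 ± 0.07. The maintenance enzyme Dnmt1 (0.27 ± 0.12) and the oxidases Tet1 (1.04 ± 0.24), Tet2 (−0.23 ± 0.21) and Tet3 (−0.11 ± 0.22) did not pass the test. Without either library of 0 h, 4 genes of the list were higher.

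Genes of the LIF and STAT3 axis were lower on balance, with Myc as the main exception. Of 14 genes, 6 fell (42.9%, against 17.4% of all genes), 2 rose (14.3%, against 14%) and 6 did not pass. The median change was −0.54. Socs3, a feedback inhibitor of the Jak kinases, was at 5.12 in both libraries of 0 h, 1.11 and 1.41 in the 24 h libraries and 0.07 and 0.71 in the 30 h libraries. Socs3 fell 19.6-fold (−4.29 ± 0.20 log2, SE, adjusted p = 1.52e-15), and the 6 h mean was 3.21. Bcl3, a cofactor of NF-kB, fell by 2.06 (log2, SE 0.15), the kinase gene Pim3 by 1.19 (SE 0.20) and Stat3 itself by 1.15 (SE 0.11). Klf4 and Tfcp2l1, described above, are counted here too. Of the receptor and kinase genes, Lifr (−0.11 ± 0.14), Il6st (−0.49 ± 0.13), Jak1 (−0.43 ± 0.12) and Jak2 (−0.59 ± 0.15) did not pass the threshold. Myc was at 4.55 and 4.43 at 0 h and between 7.30 and 7.66 later, 8.12-fold higher (3.02 ± 0.30, adjusted p = 1.78e-09), and it was at 7.64 at 6 h, so that it did not differ between 6 h and 24–30 h (−0.13, adjusted p = 0.75). Socs2 rose by 0.65 ± 0.12, which was not called without replicate A or B of 0 h. Without replicate A of 0 h 4 genes of the list were lower and 1 higher, and without replicate B of 0 h 5 were lower and 1 higher.

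**Figure D3:**
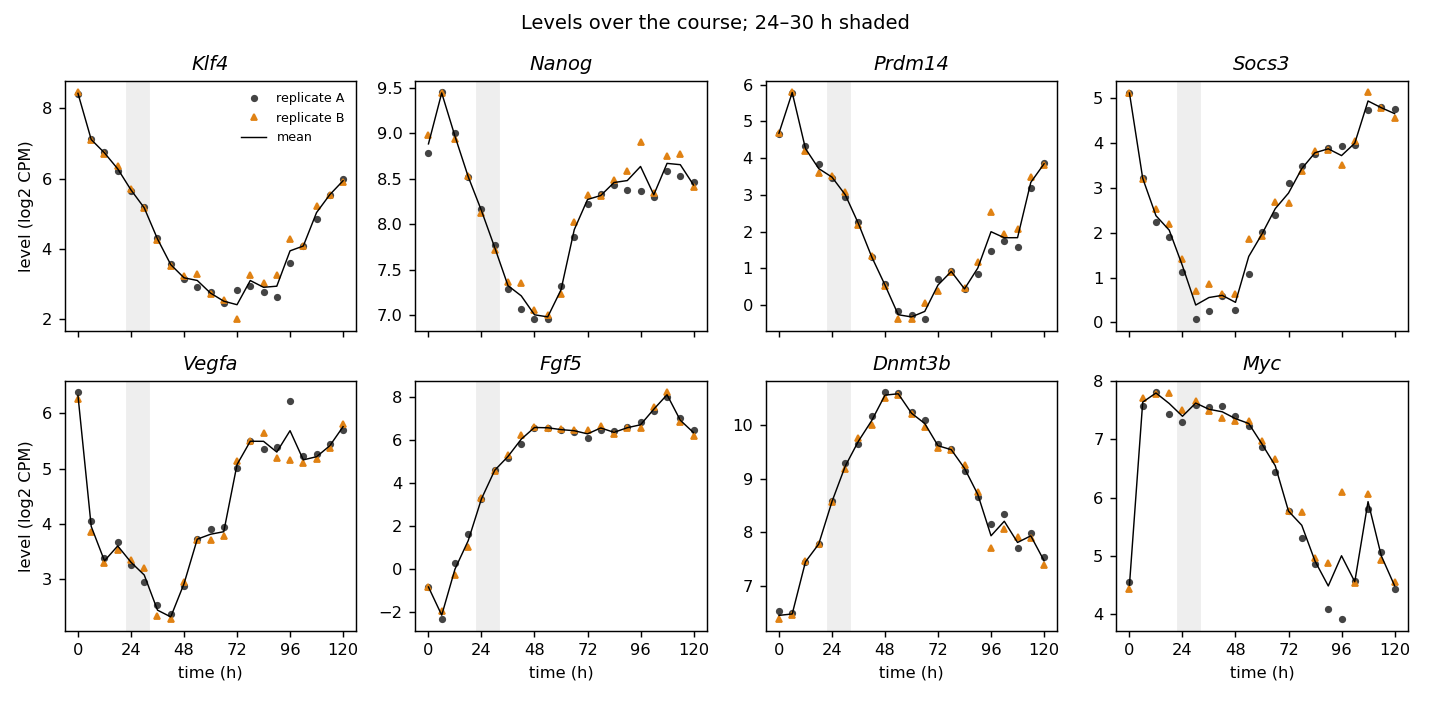
Levels (log2 CPM, vertical axes) of 8 genes over the 21 time points from 0 to 120 h (horizontal axes), with circles for replicate A, triangles for replicate B, a line for their mean and shading for 24–30 h. Socs3 and Vegfa were low at 24–30 h and higher again at 120 h, while Fgf5 was higher at 120 h than at 24–30 h. The mean of Klf4 fell on from 5.43 at 24–30 h to 3.18 at 48 h. It was 5.94 at 120 h, against 8.43 at 0 h.

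The changes at 24–30 h were thus not all kept to the end of the course. At 120 h the mean of Socs3 was 4.66 log2 CPM, against 5.12 at 0 h and 0.82 at 24–30 h. The means at these 3 stages (0 h, 24–30 h, 120 h) were 6.32, 3.19 and 5.76 for Vegfa and 4.49, 7.51 and 4.48 for Myc. They were −0.82, 3.92 and 6.33 for Fgf5 and 6.44, 8.90 and 7.46 for Dnmt3b, which had its own 48 h mean at 10.56. In these 5 genes the level at 24–30 h was therefore a stage of a course, and only Fgf5 was further from its 0 h level at 120 h than at 24–30 h.

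Many genes of glycolysis and of the response to low oxygen fell and none rose. Of 27 such genes, 17 were lower (63.0%, against 17.4% of all genes), 0 were higher and 10 did not pass the test, with a median change of −0.79. Vegfa was at 6.37 and 6.26 at 0 h, 3.27 and 3.35 in the 24 h libraries and 2.95 and 3.20 in the 30 h libraries, 8.71-fold lower (−3.12 ± 0.16 log2, SE, adjusted p = 9.88e-15). The aldolase gene Aldoc was at 6.03 in both libraries of 0 h and between 2.91 and 3.10 later, 8.07-fold lower. The phosphofructokinase gene Pfkp was at 8.96 and 8.87 at 0 h and between 6.55 and 6.75 later, 4.73-fold lower (−2.24 ± 0.08, adjusted p = 1.13e-18). The enolase gene Eno2 (−2.54 ± 0.16), Ndrg1 (−2.46 ± 0.16), the hexokinase gene Hk1 (−1.92 ± 0.13) and the glucose transporter genes Slc2a3 (−1.58 ± 0.15) and Slc2a1 (−1.38 ± 0.10) fell too. Gapdh was at 11.93 in both libraries of 0 h and between 11.74 and 11.86 later, a difference of −0.14 ± 0.14 (SE), and neither it nor Ldha (−0.28 ± 0.12) passed the test. Vegfa was already at 3.96 at 6 h and Pfkp at 7.28. After median centring 14 of these genes were lower, after quantile normalization 21, and without either library of 0 h 14.

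**Figure D4:**
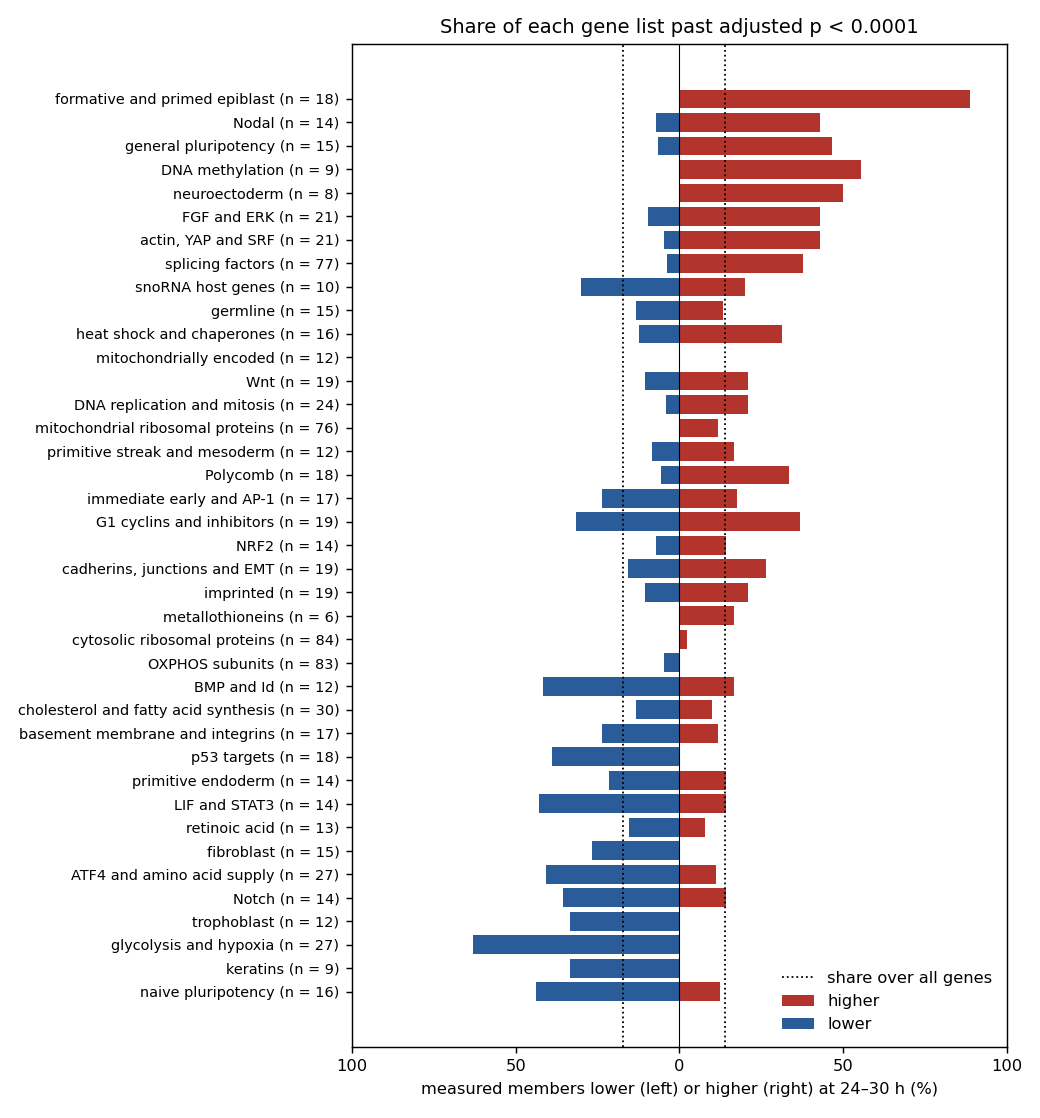
Share of the measured members of 39 gene lists (percent, horizontal axis) that were lower (blue, to the left) or higher (red, to the right) at 24–30 h, ordered by the median change of the list, with dotted lines at the shares over all genes (17.4% lower and 14% higher). Formative genes reach furthest to the right, with 16 of 18 higher, and glycolysis and hypoxia genes furthest to the left, with 17 of 27 lower.

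The signalling pathways of early development were called to unequal extents, where 14% of all genes were higher and 17.4% lower. The shares higher and lower were 42.9% and 9.52% for FGF and ERK and 42.9% and 7.14% for Nodal. For BMP and Id they were 16.7% and 41.7%. Of 21 FGF and ERK genes, 9 rose and 2 fell: next to Fgf5, the ERK phosphatase gene Dusp4 rose by 2.02 ± 0.11 (SE), while the receptor genes Fgfr3 (−3.06 ± 0.36) and Fgfr4 (−2.20 ± 0.30) fell. Of 14 Nodal genes, 6 rose and 1 fell. The inhibitor Lefty1 (1.74 ± 0.24) and the ligand Gdf3 (1.54 ± 0.17) rose, and the receptor gene Acvr1b fell by 1.68 (SE 0.10). Of 12 BMP and Id genes, 2 rose and 5 fell, among them the ligands Bmp7 (−3.53 ± 0.21) and Bmp4 (−1.71 ± 0.23) and the inhibitor Smad6 (−2.12 ± 0.24), while Id3 rose by 1.32 ± 0.20. Bmp4 had a 6 h mean of 8.14, above its 7.11 at 0 h.

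Of 19 Wnt genes, 4 rose and 2 fell, among them Lef1 and the ligand Wnt5a (2.82 ± 0.37) on the one side and the antagonist Nkd2 (−1.65 ± 0.16) on the other. Of 14 Notch genes, 2 rose and 5 fell: the receptor genes Notch4 (−2.06 ± 0.23) and Notch1 (−1.17 ± 0.20), the feedback gene Nrarp (−1.79 ± 0.16) and the target Hes1 (−0.98 ± 0.12) were lower. Of 13 retinoic acid genes, 1 rose, the receptor gene Rarg (1.24 ± 0.16), and 2 fell, the binding protein gene Crabp1 (−2.39 ± 0.18) and the receptor gene Rxra (−0.68 ± 0.11). The retinoic acid shares, 7.69% higher and 15.4% lower, were below those over all genes (14% and 17.4%). For Wnt the shares were 21.1% and 10.5%, and for Notch 14.3% and 35.7%. The median of the BMP list was −0.11 and turned to 0.05 after median centring and 0.03 after quantile normalization. Leaving out replicate B of 0 h left 3 BMP and 3 Notch genes lower, leaving out replicate A left 4 and 3, and leaving out either left 1 lower gene in each of the Wnt and retinoic acid lists.

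Genes of the primitive streak and mesoderm were mostly at low levels. Of 12 such genes, 8 were below 1 CPM in all 4 later libraries and 10 in both libraries of 0 h. The vascular receptor gene Kdr, with 0 and 5 reads at 0 h and 19 to 46 reads later, was higher, as was Foxa2, with 0 reads in both libraries of 0 h and 4 to 10 reads later, which is at least 2.51-fold against a floor of 3 reads in a library of 0 h. Mesp2 was lower (−1.68 ± 0.34, adjusted p = 9.96e-05), just inside the threshold. The shares of the list were 16.7% higher and 8.33% lower, against 14% and 17.4% over all genes. Without replicate A of 0 h no gene of this list was called, and without replicate B 1 was.

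Of 8 neuroectoderm genes, 4 were higher (50%, against 14% of all genes) and 0 lower. Sox21 was at 2.51 and 2.53 at 0 h and between 4.61 and 4.83 later, a rise of 2.17 ± 0.27, and it was at 4.50 at 6 h already. Sox1 rose by 1.19 ± 0.24. Zic1 had 0 reads in both libraries of 0 h and 5 to 11 later, at least 2.89-fold higher against the same floor. Pax6 had 2 and 1 reads at 0 h and 4 to 16 later, a ratio of 7.49 (exact 95% interval 2.41 to 37.6, counting error only). With replicate B of 0 h left out 2 genes of this list were higher, with replicate A left out 3, and in a fit on the 6 libraries alone 1 was.

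Markers of other cell types changed in part. Of 14 primitive endoderm genes, Lama1 (−2.72 ± 0.18), Pdgfra (−2.13 ± 0.38) and Gata4 (−1.61 ± 0.22) fell, Foxa2 and Lamb1 rose, and the summed level of the list was 423 to 451 CPM at 0 h and 366 to 428 later. The shares, 21.4% lower and 14.3% higher, were near those over all genes. Without replicate A of 0 h 2 were lower and 0 higher, and without replicate B of 0 h 1 was lower and 0 higher. Of 12 trophoblast genes, 4 fell (33.3%, against 17.4% of all genes) and 0 rose. The keratin gene Krt19 was at 4.14 and 4.15 at 0 h and between 0.61 and 1.27 later, 9.59-fold lower. Tfap2c, a factor of trophoblast and germ cells, fell by 3.07 (SE 0.20), Krt7 by 2.46 (SE 0.25) and Krt18 by 0.97 (SE 0.14). The summed level of the list was 156 to 159 CPM at 0 h and 79.6 to 120 later. Without replicate B of 0 h 3 trophoblast genes were lower and 2 higher.

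Of 15 fibroblast genes, 4 fell (26.7%, against 17.4% of all genes) and 0 rose, and 8 were below 1 CPM in both libraries of 0 h. The summed level of this list was 1348 to 1632 CPM at 0 h and 695 to 797 later, most of it from Fn1 and Vim, which other cells use as well. The collagen genes Col1a1 (−2.71 ± 0.21) and Col5a1 (−1.48 ± 0.12), Thy1 (−1.86 ± 0.26) and Fn1 (−1.02 ± 0.17) fell. Of the other 11 genes, Dcn and Col3a1 had 0 reads in both libraries of 0 h. The part of such cells in the falls was not tested. Of 15 germline genes, the meiotic genes Stra8 (−4.03 ± 0.69) and Sycp3 (−1.57 ± 0.25) fell and Tdrd12 (0.92 ± 0.14) and Ddx4 (0.80 ± 0.12) rose, with 1 lower and 1 higher without replicate A of 0 h and 0 lower and 1 higher without replicate B. The germline shares, 13.3% higher and 13.3% lower, were below the 14% and 17.4% over all genes. Of the 14 genes listed for 2-cell-like cells 1 was measured, and it was not called.

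Genes of the G1 phase changed in both directions, with 7 of 19 higher and 6 lower. Those shares, 36.8% and 31.6%, compare with 14% and 17.4% over all genes. Cyclin D2, Ccnd2, was at 0.27 and −0.23 at 0 h and between 3.89 and 3.99 later, 15.1-fold higher (3.92 ± 0.23, SE). The CDK inhibitor gene Cdkn1c was at 5.14 and 5.19 at 0 h and between 7.81 and 8.22 later, 7.15-fold higher. Cyclin E2, Ccne2, rose by 1.34 ± 0.14, and the inhibitor gene Cdkn1a fell by 1.41 (SE 0.23). Without either library of 0 h 3 of the list were lower, and its median of 0.21 became −0.14 without replicate A. Among 18 p53 targets 7 fell and 0 rose, with Gdf15 (−2.21 ± 0.39), Cdkn1a, Bbc3, which promotes apoptosis (−1.22 ± 0.17), and Btg2 (−0.93 ± 0.11) in front, and 2 were lower without either library of 0 h. The p53 shares were 0.0% higher and 38.9% lower, against 14% and 17.4% over all genes. Of 24 genes of DNA replication and mitosis, 5 rose (20.8%, against 14% of all genes) and 1 fell (4.17%, against 17.4%). Pcna (0.67 ± 0.11), Mcm2 (0.65 ± 0.08), Cdc6 (0.64 ± 0.08) and Cdc20 (0.55 ± 0.09) were among those that rose. That direction depended on the scaling, with 11 higher and 0 lower after median centring and 1 higher and 4 lower after quantile normalization, and without either library of 0 h 2 were higher and 0 lower.

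Genes of RNA processing were more often higher than lower. Of 77 splicing factors 29 rose (37.7%, against 14% of all genes) and 3 fell (3.9%, against 17.4%), with a median change of 0.42. The nuclear scaffold protein gene Hnrnpu was at 9.74 and 9.64 at 0 h and between 10.87 and 11.04 later, a rise of 1.26 ± 0.09. Sf3b4 (1.24 ± 0.20), Prpf31 (1.17 ± 0.12) and Prpf4b (1.17 ± 0.14), which act in the spliceosome, rose as well. The count was 14 higher and 3 lower after quantile normalization, 18 and 1 without replicate A of 0 h, and 17 and 1 without replicate B of 0 h. Of 84 genes listed for cytosolic ribosomal proteins 2 rose (2.38%, against 14% of all genes) and 0 fell. Of the 2, Rpl7l1 (1.0 ± 0.09) is a ribosomal protein-like gene. Reads of ribosomal protein genes can be shared with processed copies, so these values are uncertain. Of 76 mitochondrial ribosomal protein genes 9 rose and 0 fell, with Mrpl20 (1.35 ± 0.17), Mrps18b (1.10 ± 0.17), Mrps34 (1.10 ± 0.16) and Mrps7 (1.02 ± 0.13) highest, a share of 11.8% that was below the 14% of all genes, and 4 were higher without replicate A of 0 h and 6 without replicate B. Of 83 subunits of oxidative phosphorylation 4 fell, a share of 4.82% against 17.4% of all genes. They were the tissue-restricted forms Cox4i2 (−3.19 ± 0.53), Cox6b2 (−2.09 ± 0.15) and Cox7a1 (−1.60 ± 0.24) and Atp5s (−1.64 ± 0.22). None of the 12 mitochondrially encoded genes was called. Without replicate B of 0 h 2 of the subunits were lower. In a fit on the 6 libraries alone 4 of the mitochondrially encoded genes were higher.

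Genes of the actin cytoskeleton and of YAP and SRF were higher in 9 of 21 cases (42.9%) and lower in 1 (4.76%). Over all genes 14% were higher and 17.4% lower. The shares were 26.3% and 15.8% for cadherins, junctions and EMT and 11.8% and 23.5% for basement membranes and integrins. Actb was at 10.12 and 10.16 at 0 h and between 11.36 and 11.55 later, 2.46-fold higher, after 12.52 at 6 h. The YAP target Ccn2 (2.37 ± 0.15), the myosin light chain gene Myl9 (2.03 ± 0.21) and Ajuba (1.52 ± 0.11) rose too. Without replicate A of 0 h 5 of the list were higher and without replicate B of 0 h 6. Of 19 genes of cadherins, junctions and EMT 5 rose and 3 fell: next to Cdh2, Snai2 (2.82 ± 0.30) and the epithelial splicing factor Esrp1 (1.21 ± 0.08) rose, so that mesenchymal and epithelial genes were both among the higher ones. At 0 h Snai2 had 3 and 6 reads and Cdh2 had 10 and 8, so that the size of their rises rests on few reads. Without replicate B of 0 h 4 were higher and 0 lower, and without replicate A 5 and 2. Of 17 basement membrane and integrin genes 2 rose and 4 fell, with Itga3 (1.21 ± 0.16) and Nid1 (−1.10 ± 0.14) among them, and without replicate A of 0 h 1 was higher and 2 were lower.

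Genes of the ATF4 stress response and of amino acid supply, taken as 1 list, were lower in 11 of 27 cases (40.7%) and higher in 3 (11.1%). Over all genes the shares were 17.4% and 14%. The proline synthesis gene Pycr1 (−2.19 ± 0.24), the stress gene Nupr1 (−2.66 ± 0.35) and the lipoprotein receptor gene Vldlr (−3.65 ± 0.33) fell, and the arginine transporter gene Slc7a3 rose by 1.46 ± 0.15. Of 16 heat shock and chaperone genes 5 rose, among them Hsph1 (1.29 ± 0.15) and Hspa5 (1.03 ± 0.11), and 2 fell, Hspb8 (−3.42 ± 0.19) and Cryab (−1.35 ± 0.24), of which 1 fall was left without either library of 0 h. The heat shock shares were 31.2% higher and 12.5% lower, against 14% and 17.4% over all genes. Of 14 NRF2 targets, Hmox1 (1.99 ± 0.11) and Gclm (0.79 ± 0.09) rose and Gstm1 fell by 1.32 (SE 0.15). The NRF2 shares, 14.3% higher and 7.14% lower, were near or below those over all genes. Of 6 metallothionein genes and their partners, 1 rose, a share of 16.7% that was near the 14% of all genes. It was Mt2 (1.57 ± 0.19), which had been at 9.88 log2 CPM at 6 h and was at 7.31 at 24–30 h. Of 30 genes of cholesterol and fatty acid synthesis 3 rose and 4 fell, which became 7 and 2 after median centring and 0 and 2 without either library of 0 h, and the shares of 10% and 13.3% were below those over all genes. Scd1 (−1.05 ± 0.12) and Insig1 (−0.76 ± 0.15) fell and Idi1 (0.73 ± 0.14) rose.

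Over all genes 14% were higher and 17.4% lower. The shares were 33.3% and 5.56% for Polycomb genes and 21.1% and 10.5% for imprinted genes. They were 17.6% and 23.5% for immediate early and AP-1 genes and 20% and 30% for snoRNA host genes. Of 18 Polycomb genes, 6 rose, among them Bmi1 (1.82 ± 0.14), Kdm2b (1.48 ± 0.08) and Eed (0.56 ± 0.10), and 1 fell, Ezh1 (−1.41 ± 0.15). After quantile normalization 2 were higher and 2 lower, and without either library of 0 h 2 were higher and 1 lower. Of 19 imprinted genes 4 rose, with Cdkn1c, Zdbf2 (1.62 ± 0.22) and Peg3 (1.28 ± 0.18) in front, and 2 fell, among them Sgce (−1.02 ± 0.13), with 1 lower without either library of 0 h. Of 17 immediate early and AP-1 genes 3 rose, Myc included, and 4 fell, among them Ier3 (−2.44 ± 0.20), Fos (−2.01 ± 0.23) and Maff (−1.77 ± 0.17). Of 10 snoRNA host genes, 2 rose, Snhg5 (1.77 ± 0.13) among them, and 3 fell, Snhg18 (−2.02 ± 0.25), Snhg11 (−1.55 ± 0.19) and Snhg20 (−1.09 ± 0.17), with 1 higher without replicate A of 0 h.

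The 10 largest rises among genes that reached at least 1 CPM were those of Il10, Wt1, Insm1, Grm6, St6gal2, Enpp2, Slc35d3, Ndnf, Gsx1 and Pde4b. They include no gene of the pluripotency lists. Il10, which encodes a cytokine that restrains inflammation, had 0 reads in both libraries of 0 h, 84 and 64 at 24 h, and 118 and 46 at 30 h, at least 26.8-fold higher against a floor of 3 reads in a library of 0 h. Enpp2, which encodes autotaxin, was at −0.92 and −1.68 log2 CPM at 0 h, 4.38 and 4.17 in the 24 h libraries and 5.14 and 5.21 in the 30 h libraries. Enpp2 rose 65.3-fold (6.03 ± 0.15 log2, SE, adjusted p = 1.97e-21), and every later library exceeded both of 0 h. Wt1, a zinc finger factor of kidney and gonad, had 7 and 1 reads at 0 h and 227 to 628 later. Slc35d3 had 7 and 6 reads at 0 h and 188 to 597 later.

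The others of this group were close to silent at 0 h. Ndnf had 5 and 1 reads at 0 h and 53 to 206 later. Insm1, a factor of endocrine and neural precursors, had 0 and 2 reads at 0 h and 91 to 198 later, a ratio of 130 (exact 95% interval 35.9 to 1079, counting error only). Grm6, a glutamate receptor gene, had 1 and 0 reads and a ratio of 158 (28.2 to 6268), and the sialyltransferase gene St6gal2 had 2 and 0 reads and a ratio of 77.9 (21.4 to 646). The homeobox gene Gsx1 had 0 and 1 reads and a ratio of 67.9 (12.0 to 2699), and it had been higher at 6 h, at 2.59 log2 CPM against 0.52 at 24–30 h. The phosphodiesterase gene Pde4b had 2 and 0 reads and a ratio of 34.6 (9.42 to 289).

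The 10 largest falls included those of Jdp2, Kif19a, Atp6v0a4, Paqr5, Pygl, Lrrc31, Trim29, Alox12b and Ly6g6e. Jdp2, a partner of the Jun proteins, had 192 and 187 reads at 0 h, 14 and 10 at 24 h, and 0 in both libraries of 30 h. It had still been at 2.69 log2 CPM at 6 h, against 2.99 at 0 h, and it was at 2.99 again at 120 h. Pygl, a glycogen phosphorylase gene, was at 4.05 and 4.03 at 0 h and between −1.93 and −0.67 later, a fall of 5.34 (SE 0.32). Atp6v0a4, a subunit gene of the vacuolar proton pump, had 294 and 296 reads at 0 h and 4 to 14 later, and Ly6g6e had 207 and 233 at 0 h and 3 to 15 later. The kinesin gene Kif19a had 134 and 179 reads at 0 h and 0 to 10 later. Paqr5, Lrrc31, Trim29 and Alox12b had 34 to 90 reads in the libraries of 0 h and 0 to 5 in the later ones, so that the size of their fall rests on few reads.

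Noncoding genes were counted here as the antisense, lincRNA, processed transcript, bidirectional promoter lncRNA, sense-intronic and sense-overlapping types. Pseudogenes and small RNAs were left out. Of 601 such noncoding genes, 40 were higher and 53 lower, which was 15.5% called, against 33% of protein coding genes. The median level was 0.56 log2 CPM for the noncoding genes and 4.53 for the coding ones, and the part of this level in the smaller share was not tested. The largest rises were those of the processed transcript 4833422M21Rik, the lincRNA C130071C03Rik, the antisense genes Flicr and Gm16136 and the sense-intronic gene Gm8378. Gm16136 was at −0.35 and −1.34 at 0 h and between 2.01 and 2.20 later, a rise of 2.95 ± 0.30. C130071C03Rik had 1 and 6 reads at 0 h and 19 to 78 later, and Flicr had 4 and 1 at 0 h and 9 to 40 later. Gm8378 had 5 and 2 reads at 0 h and 9 to 48 later, and 4833422M21Rik had 0 and 3 at 0 h and 12 to 45 later.

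The largest falls of noncoding genes were those of the antisense genes Gm15441, 1110046J04Rik and Gm16754 and the lincRNAs Gm17705 and C230035I16Rik. Gm15441 was at 4.93 and 5.11 at 0 h, 1.54 and 0.10 in the 24 h libraries and 0.78 and −0.55 in the 30 h libraries. In both later times its replicate A was the higher one, and its fall of 4.55 (SE 0.89, adjusted p = 7.6e-05) was lost when either library of 0 h was left out. Gm16754 fell by 2.93 (SE 0.31). Gm17705 had 41 reads in both libraries of 0 h and 0 to 11 later, 1110046J04Rik had 32 and 33 at 0 h and 0 to 12 later, and C230035I16Rik had 51 and 70 at 0 h and 2 to 18 later. The strand setting of the counting is not given in the sources used here, so that reads of an antisense gene and of the gene it overlaps cannot be told apart with certainty.

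Few genes passed the threshold between 30 h and 24 h. Of the 14296 genes, 7 differed at an adjusted p below 0.0001 (0.049%), 3 with a replicate block, 125 at an adjusted p below 0.05, and 1224 had an unadjusted p under 0.05. Set against 0 h, the median change of the formative list was 2.08 at 24 h and 2.76 at 30 h, and that of the naive list was −0.81 and −1.24. Fgf5 (by 1.32 on the log2 scale), Zic2 (1.26), Myb (0.86) and Esrp1 (0.71) were higher at 30 h, and Jdp2 (−3.66), Emp2 (−1.08) and Cavin1 (−0.70) were lower. Myb, a transcription factor gene of progenitor cells, was at 2.02 and 1.88 at 0 h, 3.51 and 3.42 in the 24 h libraries and 4.27 and 4.39 in the 30 h libraries. Cavin1, a coat protein gene of caveolae, was at 7.01 and 7.03 at 0 h, 6.54 and 6.68 in the 24 h libraries and 5.83 and 5.98 in the 30 h libraries, after a mean of 9.37 at 6 h. Between 0 and 2 of the genes were called when 1 of the 4 libraries was left out. No gene changed differently in replicates A and B at an adjusted p below 0.0001 in limma (0.0% of genes tested), 2 did at an adjusted p below 0.05 and 236 had an unadjusted p under 0.05. The test had 2 residual degrees of freedom. It took 24 h and 30 h of a replicate as like samples, so that change between those times added to the spread and could hide a difference. In 143 of the 4498 changed genes the changes in A and B differed by more than 1 on the log2 scale.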

How the data were processed

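RNA of 42 libraries (21 time points, replicates A and B) was measured by poly(A) RNA sequencing. Trimming was by Trim Galore, alignment to the mm10 genome by TopHat2 and counting per gene by HTSeq, all run by the authors. The authors kept genes over 1 CPM in at least 2 samples, normalized library sizes with edgeR and deposited log2 CPM values from voom, which adds 0.5 reads to each count. Versions and the strand setting of the counting are not given in the sources used here. The data come from the submitters, and the read counts given here were recovered from the deposited values, with no value further than 2.9e-08 from a whole read.

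The deposited log2 values were fitted with limma 3.58.1 in R 4.3.3 (lmFit, then eBayes with a trend) on all 42 libraries with 1 term per time point, which left 21 residual degrees of freedom. The mean of 24 h and 30 h was compared with 0 h, and p-values were adjusted over all 14296 genes by the method of Benjamini and Hochberg, with a threshold of 0.0001. Every adjusted p in the text is from this tool, and the tests are two-sided. The p-values measure the spread between these duplicates, which were labelled as replicates and described as biological. The fit was tested on simulated data with known changes. Gene positions and types are from GENCODE vM21 on GRCm38, which matched 14177 genes and not the other 119. Sequences are from RefSeq.

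Members and lists were chosen with earlier results of these data known. Named were all genes of the lists on pluripotency, DNA methylation and LIF, up to 4 changed genes of each other list, the 10 largest rises and falls whose higher stage averaged at least 0 log2 CPM and no overlap between stages, the 5 largest noncoding changes each way by the same conditions, the 5 smallest adjusted p values each way, and genes that differed between 30 h and 24 h. Alternatives were the replicate block, the samples in the fit, the time points, trend, weights, scaling, pseudocount, filter, threshold and leaving out each library. A floor of 3 reads in a library of 0 h bounded folds against 0, and intervals are exact 95% intervals that cover counting error only. A few genes that these rules would name are not reported here.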

Additional observations from a re-analysis of the deposited data

Results flagged for a closer look

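In 218 named genes the 4 libraries of 24–30 h were searched for a library far from the others, and 4 were found. Chance alone gives this in about 1 in 20 groups where all 4 libraries share 1 level, so that the flags were fewer than that rate. A gene that moved between 24 h and 30 h can escape this search. Tet3 was at 4.12 log2 CPM in replicate B of 30 h and between 4.31 and 4.35 in the other libraries, a gap of 0.832 of the range. Socs2 was at 6.87 in replicate A of 24 h and between 6.71 and 6.73 in the others, a gap of 0.868 of the range. Btg2 was at 4.31 in replicate B of 30 h and between 4.38 and 4.40 in the others (0.865), and Prpf4b was at 7.79 in replicate A of 30 h and between 7.56 and 7.59 in the others (0.842). Replicate B of 30 h was the shallowest library, with 10120972 reads, and its part in the values of Tet3 and Btg2 was not tested.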

How the results depend on the processing

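The number of changed genes was 4498 at an adjusted p below 0.0001, 7496 below 0.01 and 9043 below 0.05, and 2639 when a 2-fold change was asked for as well. Genes higher at 24–30 h numbered 3502 and 4276 at the looser thresholds and 945 with the 2-fold limit, and genes lower numbered 3994 and 4767. Leaving out 1 library gave 2615 to 3973 changed genes, 1166 to 1774 higher and 1449 to 2199 lower. The lowest of these came without a library of 0 h: without replicate A 2694 genes were called, 1197 higher and 1497 lower, and without replicate B 2615, 1166 higher and 1449 lower. All 4498 genes kept their sign in both fits, which share their other libraries with the main fit and so are no separate support. The other fits (the 6 libraries alone, 24 h or 30 h alone, no trend, voom weights, median centring, quantile normalization, log2(CPM + 1), a filter on the mean level, and the mean of 18 to 36 h, which was chosen after seeing the data) gave 3247 to 4977.

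With the letter as a replicate block, 5037 genes were called, 2363 higher and 2674 lower. A and B are duplicate courses, and whether a letter marks libraries that share more than that was not settled: deviations of same-lettered libraries correlated at −0.03 between 0 and 24 h, 0.08 between 0 and 30 h and 0.18 between 24 and 30 h, and at 0.0795 on average over all pairs of time points, with 68.6% of the pairs positive. Between 30 h and 24 h the replicate block gave 3 genes, the looser thresholds 64 and 125, and leaving out 1 library, an alternative chosen after seeing the data, 0 to 2. A change that differed between cultures was called for 2 genes at either looser threshold.

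Of the 193 named genes that passed the test, 61 lost the call when some library was left out, 45 of them without replicate A and 50 without replicate B of 0 h. A sign changed only in genes that had not passed: Fgf4 was at −0.00128 with 24 h alone and −0.15 after quantile normalization, Dnmt1 at −0.12 after quantile normalization, Tet2 at 0.0193 with 24 h alone, Tet3 at 0.0412 after median centring and 0.0402 after quantile normalization, and Lifr at 0.0377 and Gapdh at 0.0132 after median centring. The cause of these differences was not tested. Depth limits genes with few reads, since 3 reads were worth up to 0.316 CPM. Among genes given above by their change alone, Wnt8a had 4 and 5 reads at 0 h and Myl9 had 6 and 5. At 24–30 h Vldlr had 2 to 9 reads, Cox4i2 3 to 15 and Snhg18 5 to 16.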
